A study of Mus musculus with 18 samples.

Results

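A pair of short circular RNAs, detected mainly in livers exposed to carbon tetrachloride (CCl4), was followed liver by liver in mice. One lies on chromosome 3 from 5860581 to 5860757 (177 bp) in no annotated gene, and the other on chromosome 16 from 11144001 to 11144173 (173 bp) within Zc3h7a, both on genome build GRCm38. Their identifiers in the deposited table are 3:5860581|5860757 and 16:11144001|11144173, and they are 2 of its 434 circular RNAs. They were chosen by their CPM values in CCl4 against control livers, where both were higher in CCl4, so that contrast is given below as a description, with no test. The 18 livers came from male C57BL/6 mice that were 6 weeks old at the start, with 15 mice per group and 6 per group sequenced in week 22. The CCl4+PZH mice received intraperitoneal CCl4 and intragastric Pien Tze Huang, or PZH, which is a traditional Chinese medicine and which the sample labels write as PTH. The CCl4 mice received intraperitoneal CCl4, by which the study induced liver cancer, and intragastric water. The control mice received intragastric water and intraperitoneal olive oil. RNA was taken from whole liver tissue, so fewer cells of a type and less RNA per cell cannot be told apart. The CCl4+PZH and CCl4 livers are together called the exposed livers here.

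A circular RNA is a closed loop that forms when the splicing machinery joins a downstream splice donor to an upstream splice acceptor. It has no free ends and resists the enzymes that degrade linear RNA from its ends. Sequencing detects it through reads that span the joint, called the back-splice junction. Zc3h7a encodes a protein with CCCH zinc fingers, a fold that binds RNA, and in human cells this protein has been described as binding hairpin precursors of microRNAs. CCl4 is converted by hepatocyte enzymes into a radical that damages the cells around the central veins, and repeated dosing gives fibrosis and tumours in rodents. Linear transcripts of the host gene were not analysed here, and circle and host levels can differ.

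Levels are in CPM, that is, back-splice reads scaled by the authors to a common library total. The values of each library were whole multiples of 1 read, and so the reads themselves could be recovered. Recovered reads over all circular RNAs ran from 1194 to 1869 in CCl4+PZH livers, from 930 to 1481 in CCl4 livers and from 900 to 2840 in controls. Summed CPM ran from 116 to 251 in CCl4+PZH livers, from 85.5 to 184 in CCl4 livers and from 40.4 to 550 in controls, with control 3 lowest and control 4 highest. For a value listed at 0, the limit that a count of 0 allows is 3 reads, or 0.291 to 0.515 CPM in CCl4+PZH livers, 0.262 to 0.438 CPM in CCl4 livers and 0.135 to 0.918 CPM in controls. These floors and the intervals below cover counting error only, since copies made by PCR are not independent molecules. Controls 2, 3 and 4 carry accession numbers from a later block than the other 15 libraries. Values with controls 1, 5 and 8 alone are given beside the differences from controls.

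The span of the chromosome 3 circular RNA was the 8th shortest of 434 and that of the Zc3h7a circular RNA the 6th shortest, against a median span of 4691 bp. A read of 150 bp, the length sequenced here, covers 84.7% of the chromosome 3 circle and 86.7% of the Zc3h7a circle, if neither holds an intron that is removed. Zc3h7a runs from 11136594 to 11176393 on the minus strand of chromosome 16 (RefSeq on GRCm38.p6). The circle begins 32220 bp from the gene's 5′ end, 81.0% of the way along its 39800 bp, and ends 7407 bp before its 3′ end. It was the only circular RNA of the table in Zc3h7a. Whether it corresponds to an exon was not analysed here, and the table gives no strand. Both circles are taken as listed by the authors, and neither junction's sequence or splice sites were examined here. The chromosome 3 circle lies in a wide gap between genes. The nearest annotated genes are the pseudogene Gm8797, 109285 bp away on the side of lower coordinates, and the long non-coding RNA gene Gm46796, 246259 bp away on the other side. The nearest protein-coding gene is Pex2, which encodes a peroxisome assembly factor, 281984 bp away.

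The chromosome 3 circular RNA was found in every CCl4+PZH liver, in 5 of 6 CCl4 livers and in no control liver. Its level was 9.61, 4.28, 3.24, 5.46, 4.82 and 2.40 CPM in CCl4+PZH livers 1, 2, 3, 6, 7 and 8. In CCl4 livers 1, 4, 5, 7 and 8 it was 7.72, 3.15, 2.2, 7.08 and 9.19 CPM, and CCl4 liver 2 was listed at 0. All 6 controls were listed at 0. The lowest exposed liver above 0 stood 2.40-fold over the highest floor of a control. The CCl4+PZH livers and the controls therefore did not overlap, as for 2 of all 434 circular RNAs in this direction (0.461%), while CCl4 liver 2 fell among the controls.

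**Figure D1:**
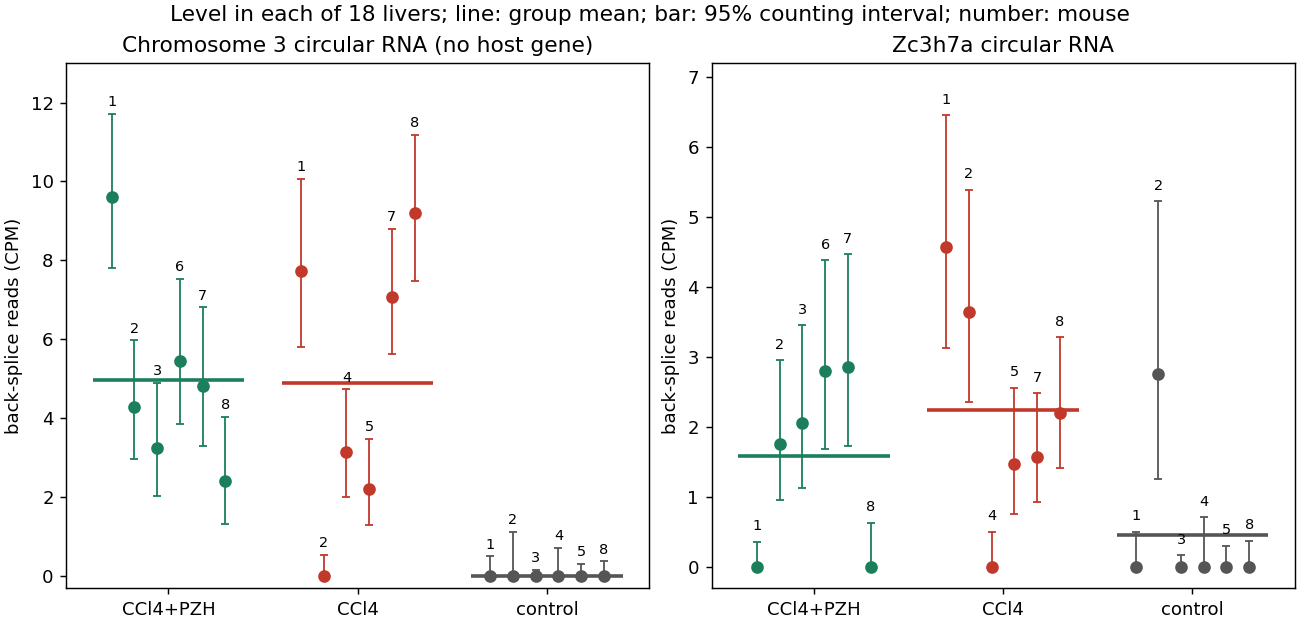
Level of each circular RNA in CPM (y axis) in each of 6 CCl4+PZH, 6 CCl4 and 6 control livers (x axis). Points are livers with their mouse number, bars are 95% Poisson counting intervals and lines are group means; the chromosome 3 circular RNA is at 0 in 6 of 6 controls and in CCl4 liver 2, and that of Zc3h7a is above 0 in 1 control.

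In reads, the chromosome 3 junction was counted 99, 34, 22, 37, 32 and 14 times in the CCl4+PZH livers, in the order of mouse given above. It was counted 54, 0, 23, 18, 81 and 100 times in CCl4 livers 1, 2, 4, 5, 7 and 8, and 0 times among the 9529 reads of the 6 controls. In 6 of the 12 exposed livers no other circular RNA had a higher level: CCl4+PZH 1, 6 and 7 and CCl4 1, 7 and 8. Its share of a library's circular reads was highest in CCl4 8, at 10.8% (exact 95% interval 8.83% to 12.9%), and in CCl4+PZH 1, at 8.29%. It was lowest among livers above 0 in CCl4+PZH 8, at 1.01% (0.555% to 1.69%). The mean level was 4.97 ± 2.53 CPM in CCl4+PZH livers and 4.89 ± 3.62 CPM in CCl4 livers (SD, n = 6 each). Against the mean of the control floors, taken at 3 reads in each library, the CCl4+PZH mean was at least 11.5-fold higher and the CCl4 mean at least 11.3-fold higher, as far as counting error goes.

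The Zc3h7a circular RNA was lower and was missing from more of the exposed livers. Its level was 1.76, 2.06, 2.81 and 2.86 CPM in CCl4+PZH livers 2, 3, 6 and 7, and CCl4+PZH livers 1 and 8 were listed at 0. In CCl4 livers 1, 2, 5, 7 and 8 it was 4.58, 3.65, 1.47, 1.57 and 2.21 CPM, and CCl4 liver 4 was listed at 0. Among controls it was above 0 in control 2 alone, at 2.755 CPM from 9 reads (95% Poisson interval 1.26 to 5.23 CPM). Control 2 therefore lay within the range of the exposed livers above 0, and it had the smallest library total implied by the value of 1 read, at 3.27 M reads (M, the scale of CPM). The circle made up 2.58% of circular reads in CCl4 8 (exact 95% interval 1.66% to 3.82%), 2.49% in CCl4 1 and 2.19% in CCl4 2. In those 3 livers it ranked 3rd, 2nd and 2nd by level, and in the other exposed livers above 0 it ranked between 8th and 26th. The mean level was 1.58 ± 1.30 CPM in CCl4+PZH, 2.25 ± 1.64 CPM in CCl4 and 0.459 ± 1.12 CPM in control livers (SD, n = 6 each).

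The differences that chose these circular RNAs were fitted with limma on log2(CPM + 0.137), a scale that understates the change of low values. CCl4 minus control was 4.39 (SE 0.80) for the chromosome 3 circular RNA and 2.80 (SE 0.74) for that of Zc3h7a, the highest and second highest of 434. In this contrast 3 of 434 passed an adjusted p of 0.05 (0.691%). These 2 are among them because the contrast chose them, so that is no test of either. With a pseudocount of 0.5 or 1 CPM only 1 of 434 passed. The next highest values belonged to Tlk1, a kinase gene, at 2.17, and to Psd3, at 2.12. The median of all 434 was −0.28, and relative to it the values were 4.68 and 3.08. CCl4+PZH minus control was 5.09 (SE 0.80) for the chromosome 3 circular RNA and 2.05 (SE 0.74) for that of Zc3h7a, ranks 1 and 3 of 434, where 1 of 434 passed (0.23%). That contrast uses the same controls and is likewise not tested here. The difference for Zc3h7a between CCl4 and control was 3.54 with controls 1, 5 and 8 alone and also without control 2, the one control above 0. It fell to 2.43 without controls 3 and 4, and to between 2.65 and 2.66 without any single other control. For the chromosome 3 circular RNA it was 4.40 with controls 1, 5 and 8. With the same 3 controls, CCl4+PZH minus control was 5.10 for the chromosome 3 circular RNA and 2.79 for that of Zc3h7a. Without controls 3 and 4, the Zc3h7a value was 1.68.

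Addition of PZH to CCl4 left neither circular RNA past the threshold. CCl4+PZH minus CCl4 was 0.70 for the chromosome 3 circular RNA (95% interval −0.87 to 2.27, limma adjusted p = 0.947) and −0.75 for that of Zc3h7a (−2.2 to 0.69, limma adjusted p = 0.896). Relative to the median of all 434 in this contrast, 0.23, the values were 0.47 and −0.98. In CPM the differences were 0.0774 (exact permutation p = 0.959, two-sided) and −0.664 (exact permutation p = 0.437). Each interval still holds a change of more than 1 on the log2 scale in one direction, higher in CCl4+PZH for chromosome 3 and lower for Zc3h7a. The CCl4 livers also took part in choosing the circular RNAs, which favours high values among them. In addition, no listed circular RNA was above 0 in fewer than 9 of 18 libraries, and at most 1 control was above 0 for either circle. Had one been absent from all CCl4+PZH livers, it would have fallen below that number. A complete loss with PZH may therefore not be visible in this contrast. No circular RNA passed in this contrast by limma (0 of 434, 0%, with 24, or 5.53%, at an unadjusted p under 0.05), nor by edgeR or DESeq2. Without CCl4 liver 2, the liver at 0, the difference for the chromosome 3 circular RNA was −0.18 (limma adjusted p = 0.978), and edgeR with TMM and DESeq2 on the recovered reads gave −0.34 and −0.39.

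Set beside each other in the same liver, the chromosome 3 circular RNA was the higher in 11 of 12 exposed livers. Each is counted at 1 junction and their spans differ by 4 bp. Both were above 0 in 8 exposed livers. In these the chromosome 3 junction had 4.50 and 4.17 times as many reads as that of Zc3h7a in CCl4 7 and 8, and between 1.5 and 2.43 times as many in the other 6. The remaining 4 exposed livers had one of them at 0: CCl4 2 had 25 reads of Zc3h7a and 0 of chromosome 3, while CCl4+PZH 1, CCl4+PZH 8 and CCl4 4 had 99, 14 and 23 reads of chromosome 3 and 0 of Zc3h7a. No exposed liver lacked both.

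The per-liver difference in log2(CPM + pseudocount), chromosome 3 minus Zc3h7a, was 2.31 ± 2.32 in CCl4+PZH livers (SD, n = 6; exact sign-flip permutation p = 0.0312, the smallest that 6 livers can give, adjusted p = 0.0938 over 3 comparisons). It was 0.86 ± 3.12 in CCl4 livers (exact permutation p = 0.5) and 1.58 ± 2.73 over the 12 exposed livers (exact permutation p = 0.0742, adjusted p = 0.111). None passed the adjustment. The CCl4 livers, used in the last 2 of these comparisons, also took part in choosing the pair, so those 2 are descriptions and give no support. The presence of both circles in the table also rests mainly on the exposed livers. CCl4 liver 2 was the one exposed liver of opposite sign. Without it the difference was 2.16, and since the 11 livers left all had the same sign, the exact permutation p was the smallest that 11 livers can give (0.000977) and adds no independent support. The difference itself did not differ between the groups beyond the spread, being 1.45 higher in CCl4+PZH than in CCl4 livers (exact permutation p = 0.42). That higher value rests on livers with one circle at 0, where the pseudocount helps set the difference. It was 6.16 in CCl4+PZH 1, 4.22 in CCl4+PZH 8, 4.59 in CCl4 4 and −4.79 in CCl4 2. Where both circles were above 0, it ran from 0.62 to 1.22 in CCl4+PZH livers and from 0.54 to 2.08 in CCl4 livers.

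**Figure D2:**
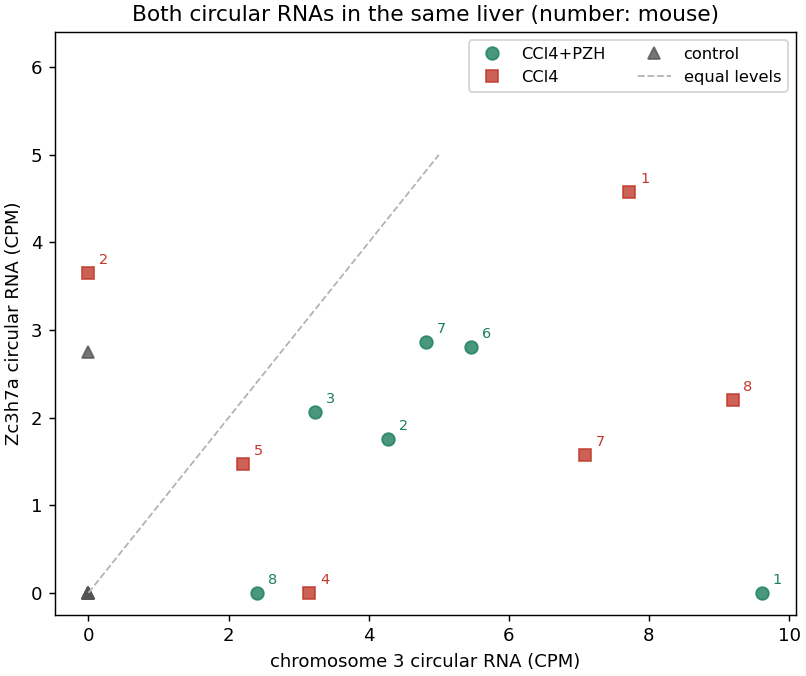
Zc3h7a circular RNA (y axis, CPM) against chromosome 3 circular RNA (x axis, CPM) in the same liver, for CCl4+PZH (circles), CCl4 (squares) and control livers (triangles), with mouse numbers for exposed livers. The dashed line marks equal levels; 11 of 12 exposed livers lie below it and CCl4 liver 2 lies on the y axis.

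Among exposed livers the levels of the circular RNAs showed no relation that passed a test. Over the 12 livers Pearson's r was −0.141 (permutation p = 0.667) and Spearman's coefficient 0.113 (permutation p = 0.729) on the log2 scale. Within CCl4+PZH livers r was −0.0826 and Spearman's coefficient 0.174, and within CCl4 livers −0.135 and 0.257 (exact permutation p from 0.658 to 0.886). All 8 adjusted p-values of this family were 0.886. Without the 2 livers farthest from the median of the chromosome 3 level, CCl4 2 and CCl4+PZH 1, r was 0.60 and Spearman's coefficient 0.717 over 10 livers. These are given as a description with no p, since the livers left out were picked by their own levels and each has one of the circles at 0. The sign of r rests on CCl4 2, as r was 0.24 without that liver alone and −0.0045 without CCl4+PZH 1 alone.

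Both circular RNAs were either plentiful or not seen. The smallest count above 0 was 14 reads for chromosome 3 and 9 reads for Zc3h7a, and no library had a count between these and 0. Of the 424 circular RNAs at 0 in at least 1 library, 375 (88.4%) had a library with a single read, and 4 had a smallest count of 9 reads or more. The other two were those of Rmdn2, which encodes a regulator of microtubule dynamics, and of Gramd1c, which encodes a cholesterol transporter, with 12 and 10 reads. The cut-off of 9 is the Zc3h7a count itself, and a scarce circular RNA cannot have a high smallest count. For the chromosome 3 circle, a count of 0 allows up to 0.438 CPM in CCl4 liver 2, where the lowest of the other CCl4 livers stood at 2.2 CPM. For Zc3h7a, the limit was 0.291 CPM in CCl4+PZH liver 1, while CCl4+PZH liver 8 had a limit of 0.515 CPM, where the lowest other liver of that group stood at 1.76 CPM. In CCl4 liver 4 it was 0.411 CPM, where the lowest other CCl4 liver stood at 1.47 CPM. Zeros in abundant circular RNAs were not confined to this pair. The 5 circular RNAs with the highest mean count over the exposed livers in which they were above 0 include the pair. Of the 5, 4 were at 0 in at least 1 exposed liver: the pair, Gramd1c in 3 livers and Ube3a, a ubiquitin ligase gene, in 1. What produced these zeros was not tested.

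**Figure D3:**
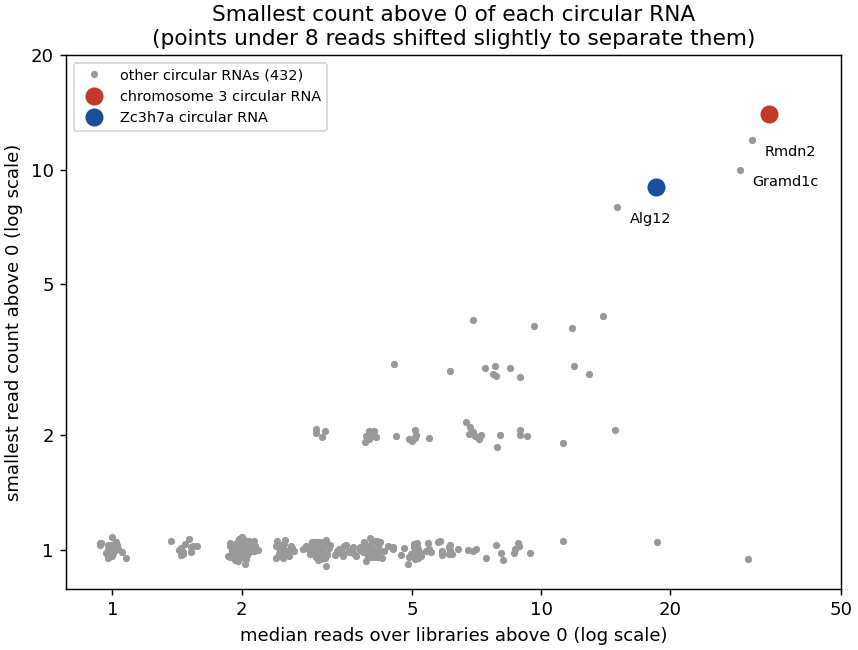
Smallest read count above 0 in any library (y axis, log scale) against the median count over libraries above 0 (x axis, log scale) for the 434 circular RNAs. The chromosome 3 (14 reads) and Zc3h7a (9 reads) circular RNAs lie at the top right beside Rmdn2, Gramd1c and Alg12, and most others have a smallest count of 1 read.

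At the CCl4 mean, the chromosome 3 junction would have given 16 reads in control 2, the library of highest floor, and 109 reads in control 3, the library of lowest floor, and both had 0. For Zc3h7a the same calculation gives 7.34 reads in control 2, which had 9, and 50.0 in control 3, which had 0. These expected counts rest on the CPM scale. Control 3 had the lowest summed CPM of all libraries, 40.4, and the highest implied library total, 22.3 M reads. The mean share of circular reads in CCl4 livers was 3.96% for chromosome 3 and 1.55% for Zc3h7a. At these shares fewer reads would be expected in control 3, with 900 circular reads, and more in control 2, with 1263. Only 3 of 434 circular RNAs (0.691%) were listed at 0 in all controls, that of chromosome 3 among them. Those above 0 in 9 or more exposed livers and in at most 1 control numbered 8 (1.84%), including both described here. These cut-offs are the counts of the Zc3h7a circle itself, and a contrast with the same controls chose the pair. The inclusion of the pair is therefore a description and gives no support. The fewest libraries above 0 for any listed circular RNA were 9 of 18, and the chromosome 3 and Zc3h7a circles were above 0 in 11 and 10. The table therefore held no circle present in 1 group of 6 alone, while it did hold circles seen almost only in the 2 exposed groups. Whether a filter set this minimum is not given in the sources used here.

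The other short circular RNAs were mostly not higher in CCl4, as in the table as a whole. Of the 7 others with a span under 200 bp, 1 had a positive difference in CCl4 against control, beside 161 of all 434. It was that of the adaptor protein gene Crk (160 bp, log2 1.18), and 0 of the 7 passed, beside 3 of 434. The 7 had a median of −0.57, beside −0.28 for all 434, and they ran from −1.53 to 1.18. In CCl4+PZH against CCl4, 6 of the 7 were positive, beside 303 of all 434. Their median was 0.78 beside 0.23 for all, and 0 passed (limma, as for all 434). Ube2g2, a ubiquitin-conjugating enzyme gene with a circle of 169 bp, was measured at 0.541 ± 0.402 CPM in CCl4+PZH, 0.0969 ± 0.196 CPM in CCl4 and 0.770 ± 0.881 CPM in control livers (SD, n = 6 each). Ndufs1, a gene of respiratory complex I with a circle of 176 bp, was at 1.47 ± 1.70 CPM in CCl4+PZH, 0.457 ± 0.401 CPM in CCl4 and 2.19 ± 3.67 CPM in control livers (SD, n = 6 each). Those of Ube2g2 and Ndufs1 were present in controls, 5 of 6 being above 0 for Ube2g2 and 3 of 6 for Ndufs1. The Crk circle averaged 0.144 ± 0.180 CPM in CCl4+PZH livers, 0.268 ± 0.193 CPM in CCl4 livers and 0.0323 ± 0.0790 CPM in control livers (SD, n = 6 each). It was above 0 in 3 of 6 CCl4+PZH, 5 of 6 CCl4 and 1 of 6 control livers, and no library held more than 4 reads of it.

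**Figure D4:**
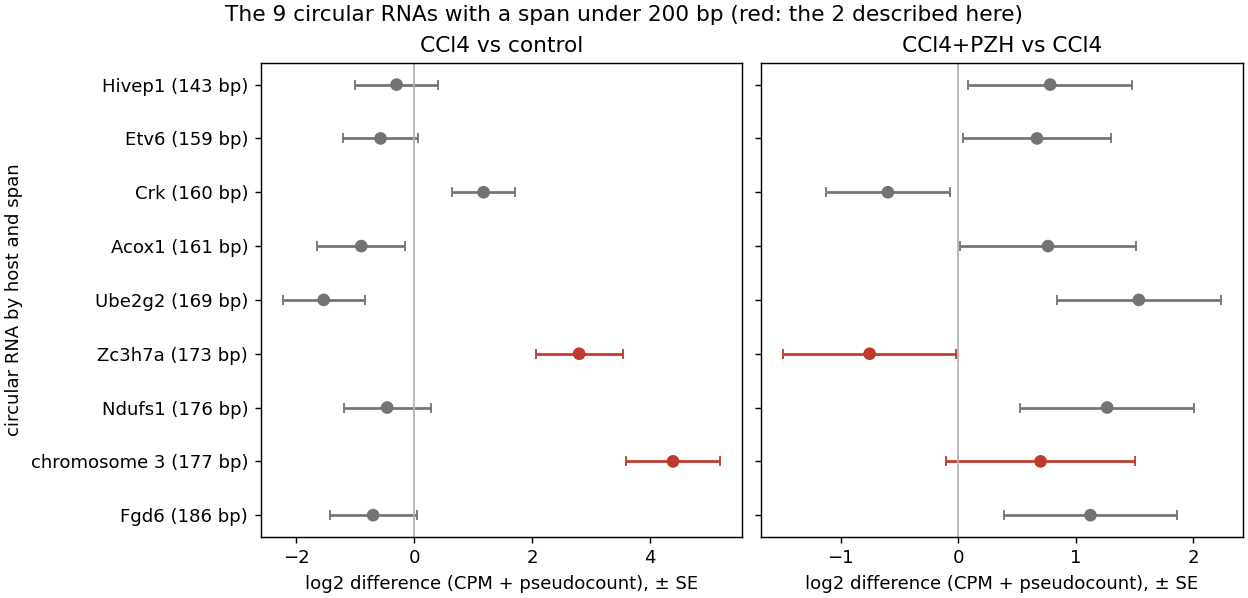
Fitted log2 difference with its SE (x axis) for the 9 circular RNAs with a span under 200 bp (y axis, by host and span), in CCl4 against control (left) and in CCl4+PZH against CCl4 (right). Chromosome 3 and Zc3h7a (red) are at 4.39 and 2.80 on the left, where the other 7 run from −1.53 to 1.18.

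The table held 2 further circular RNAs within 100 kb of that of Zc3h7a and none within 100 kb of that on chromosome 3. In Txndc11, a thioredoxin domain gene next to Zc3h7a, the level was 0.935 ± 0.669 CPM in CCl4+PZH, 0.387 ± 0.374 CPM in CCl4 and 0.846 ± 0.612 CPM in control livers (SD, n = 6 each; CCl4 minus control −1.05, limma adjusted p = 0.704). In Rsl1d1, a gene of a nucleolar protein, it was 0.0986 ± 0.121 CPM in CCl4+PZH, 0.208 ± 0.224 CPM in CCl4 and 0.0900 ± 0.109 CPM in control livers (SD, n = 6 each; CCl4 minus control 0.48, limma adjusted p = 0.848). The 4 other circular RNAs without a host gene had spans from 2149 to 189347 bp. Of these 4, 2 were positive in CCl4 against control, beside 161 of all 434. Their values ran from −1.12 to 0.50, with 0 past the threshold, beside 3 of 434.

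The circular RNAs whose levels were most like those of chromosome 3 over the 18 libraries were far scarcer. The first was that of Arhgap32, a gene of a GTPase-activating protein, with a Spearman correlation of 0.703. Its level was 0.400 ± 0.148 CPM in CCl4+PZH livers, 0.133 ± 0.222 CPM in CCl4 livers and 0 in all controls (SD, n = 6 each). It was followed by that of Trmt2b, a gene of a tRNA methyltransferase, with 0.566, and by one of 189347 bp on chromosome 6 without a host gene, with 0.533. Within the 12 exposed livers these values were 0.310, 0.155 and 0.465. For Zc3h7a the most alike were the circular RNAs of Erbin, a scaffold protein gene (Spearman correlation 0.676), Mpp6, a membrane scaffold gene (0.674), and Iqgap2, a scaffold gene of the cytoskeleton (0.655). Within the exposed livers their values were 0.709, 0.557 and 0.552. In the controls that of Erbin was above 0 in 5 of 6, at 1.64 ± 1.84 CPM (SD, n = 6). The pair described here was less alike, with a Spearman correlation of 0.376 over 18 libraries, rank 16 in the list for chromosome 3 and rank 46 in the list for Zc3h7a. These correlations share depth and library total, and no p is given.

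Genes related to Zc3h7a by function were looked up among the hosts of circular RNAs in the table. The share of all annotated genes that host one was not computed, so the counts are no result about these families. Of 45 genes of CCCH zinc finger proteins only Zc3h7a, around which the list was drawn up, hosted one, and of 20 genes of the microRNA pathway none did. Of 25 genes of circular RNA formation and turnover, 1 did: Hnrnpu, a gene of a nuclear RNA-binding protein. Its circular RNA was measured at 0.706 ± 0.475 CPM in CCl4+PZH, 0.383 ± 0.631 CPM in CCl4 and 1.72 ± 1.65 CPM in control livers (SD, n = 6 each), and 0 passed in any contrast (limma CCl4 minus control −2.11, adjusted p = 0.199).

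Circular RNAs of genes that mark liver cell types gave the following levels beside the pair. The 13 of hepatocyte markers, from 9 of 16 genes, summed to 2.23 to 6.93 CPM in CCl4+PZH, 1.65 to 3.42 CPM in CCl4 and 1.48 to 15.0 CPM in control livers. The 4 of macrophage markers, 3 in Adgre1 and 1 in Mertk out of 10 genes, summed to 0.680 to 3.02 CPM in CCl4+PZH, 0.368 to 4.66 CPM in CCl4 and 0 to 2.71 CPM in control livers. In CCl4 against control, 2 of the 13 hepatocyte circles had positive differences (median −0.46), as had all 4 macrophage circles (median 0.83) and 161 of all 434 (median −0.28). In CCl4+PZH against CCl4 the numbers were 12 of 13 (median 0.32), 2 of 4 (median −0.22) and 303 of 434 (median 0.23). No circle of either list passed in these contrasts (limma). At an unadjusted p under 0.05 there were 5 of 13 hepatocyte circles, 1 of 4 macrophage circles and 36 of all 434 in CCl4 against control. In CCl4+PZH against CCl4 there were 1 of 13, 0 of 4 and 24 of 434. The 1 of lymphocyte markers, in Ikzf1, stood at 0.760 ± 0.471 CPM in CCl4+PZH, 0.526 ± 0.377 CPM in CCl4 and 0.239 ± 0.377 CPM in control livers (SD, n = 6 each). Genes marking stellate, endothelial, bile duct and red blood cells hosted none. The groups overlapped in each of these sums. The part of cell composition in the levels of the pair was not tested.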

How the data were processed

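Per the labels' protocols, RNA depleted of ribosomal RNA was made into libraries with a NEBNext kit and sequenced as 150 bp paired reads on an Illumina HiSeq instrument. The submitters' processing notes name the aligners HISAT2 2.2.1 and Bowtie2 2.5.1 with build GRCm38. Not given in the sources used here are the caller of circular RNAs, the library total of the CPM and any filter. The authors deposited CPM values for 434 circular RNAs in 18 libraries. All 7812 values (100%) were within 0.1 of a whole multiple of 1 read, giving 25803 recovered reads.

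Host genes were those of RefSeq GRCm38.p6 that contain both ends, found for 429 of 434. One limma 3.58.1 fit (R 4.3.3) of 3 group means on log2(CPM + 0.13655), the median smallest value above 0, with intensity trend, covered all 434, with Benjamini-Hochberg adjustment, two-sided tests and a threshold of 0.05. The count tests edgeR 4.0.16 (quasi-likelihood) and DESeq2 1.42.0 (size factors from positive counts) on recovered reads called 5 and 3 in CCl4 against control, 0 and 0 in CCl4+PZH against CCl4 and 2 and 1 in CCl4+PZH against control. The fits were tested on simulated data. Correlations over 10 or 12 livers used 100000 permutations, and smaller sets exact ones. Python 3.11.15 with scipy 1.17.1 was used for these. Alternatives were pseudocounts, scaling, filter, tools, replicate block and left-out libraries; edgeR with implied totals and the fit without controls 3 and 4 were chosen after seeing the data. The circular RNAs and gene lists were chosen with earlier results of these data known. Named by rule were the pair, the 3 most like each, circles under 200 bp or within 100 kb, and list members past the threshold or of smallest p; Rmdn2, Gramd1c, Alg12, Ube3a, Tlk1 and Psd3 were named after their values were seen. No pair of libraries in a group agreed within sampling noise (45 pairs, lowest chi-square per degree of freedom 2.11). Nothing states that the mice were separate litters or cages, so p-values measure the spread between these mice.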

Additional observations from a re-analysis of the deposited data

Results flagged for a closer look

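Dixon's test at its 95% limit was applied to 10 sets of values, with the CPM and log2 scales counted separately. In 4 sets a mouse lay apart from the other 5 of its group by more than that limit. Chance flags about 1 in 20 where values are normally distributed, a rate that need not hold for counts with zeros. On the log2 scale the gap of a zero also depends on the pseudocount. For the chromosome 3 circular RNA, CCl4 liver 2 was listed at 0 CPM, and the gap to the next liver was 0.672 of the group's range on the log2 scale. For the Zc3h7a circular RNA, CCl4 liver 4 was listed at 0 CPM, with a gap of 0.696 of the range on that scale. Also for Zc3h7a, control 2 stood at 2.755 CPM and the other 5 controls at 0, on both scales. A single value against 0 in all others is always picked out in this way, so the limit says little there.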

How the results depend on the processing

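Calls in CCl4 against control numbered 3, against 1 with a pseudocount of 0.5 or 1 CPM, with only circles above 0 in 12 or more libraries, with the replicate block and in edgeR with implied totals, and 5 with values rescaled to the table sum and in edgeR with TMM; leaving out a library gave 1 to 6 (1 without control 1, 4 or 8 or CCl4 1, 2, 7 or 8, and 6 without control 3). In CCl4+PZH against control 1 became 0 under that filter and 2 in both edgeR fits, with 1 to 3 when a library was left out (3 without control 2). The filter removed both described circles. Their fitted log2 values depend on the pseudocount or prior. For chromosome 3, CCl4 minus control was 2.92 and 2.2 with 0.5 and 1 CPM, 8.75 in edgeR with TMM, 8.30 in DESeq2 and 8.41 in edgeR with implied totals; CCl4+PZH minus control was 3.34, 2.48, 8.41, 7.90 and 8.44 in the same order. Its CCl4+PZH minus CCl4 value was 0.41 and 0.28 with 0.5 and 1 CPM, 0.26 rescaled and 0.022 in edgeR with implied totals, turned to −0.34 in edgeR with TMM and −0.39 in DESeq2, and ran from −0.18 to 1.04 with a library left out. For Zc3h7a that value stayed negative in every fit run, at −0.48 and −0.35 with 0.5 and 1 CPM, −1.21 rescaled, −1.74 with the replicate block, and from −1.46 to −0.20 with a library left out; CCl4 minus control was 1.69 and 1.19 with 0.5 and 1 CPM, and CCl4+PZH minus control 1.22 and 0.84, and 0.94 with the block. The per-liver difference of 1.58 over exposed livers was 1.23 with 0.5 CPM (exact permutation p = 0.0381) and 1.01 with 1 CPM (exact permutation p = 0.0254). These p-values are not adjusted over the 3 comparisons used above, so they do not show that the difference passed. With a liver left out it ran from 1.17 to 2.16. Pearson's r between the circles ran from −0.22 to 0.24, positive without CCl4 2. The cause of these shifts was not tested. Replicate numbers showed no clear pairing of the mice, though few numbers were shared between groups. Same-numbered deviations correlated between −0.154 and 0.0794, and 1 of 5, 0 of 4 and 2 of 4 libraries were most like their own number. The replicate block gave 1, 0 and 1 calls. A count of 0 allows a mean of up to 3 reads, so lower levels could be missed at this depth.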
